A study of Bos taurus with 27 samples.

Results

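Cathepsins, the cystatins that inhibit them and the tissue inhibitors of metalloproteinases (TIMPs) were described in bovine blastocysts from the counts of 3′ RNA sequencing. The genes were taken from a list of 10 symbols, CTSB, CTSD, CTSH, CTSL, CTSZ, CST3, CST6, CSTB, TIMP1 and TIMP2. The table of counts held 9 of them under these symbols among its 32637 genes, and CSTB was not among its row names. All 9 reached 1 CPM (1 count per 1000000 counts of the pool) in each of the 27 pools, and were thus among the 12310 genes retained at 1 CPM or more in at least 12 pools.

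Each of the 27 samples was a pool of RNA from 2 expanding or expanded blastocysts of quality score 1 produced in vitro. The oocytes had matured in medium supplemented with preovulatory follicular fluid, from follicles classed as of greater or of lesser maturity, and embryos were cultured in the same way afterwards. The labels give each pool a number but neither its follicle maturity nor its in vitro fertilization replicate, so the pools were described as 1 group and treatments were not compared here. A whole blastocyst holds trophectoderm, epiblast and hypoblast cells, and in such RNA fewer cells of a type and less RNA per cell cannot be told apart. Pools are named by their number.

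Cathepsins are proteases that mostly work in the acid interior of lysosomes, where they degrade proteins delivered by endocytosis and autophagy, and several are also secreted. Cystatins bind and block cysteine cathepsins, whereas TIMPs bind matrix metalloproteinases and related enzymes at the cell surface and in the extracellular matrix. In cattle the blastocyst stays free in the uterus for days before attachment, and proteases of the trophectoderm and endometrium and their inhibitors take part in the remodelling of matrix as the conceptus elongates and attaches.

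Pools had total counts from 10517606 to 44253564 (median 22293594), and 3 counts were equal to between 0.0678 and 0.285 CPM. The members together took between 0.200% and 0.389% of the counts of a pool, with a median of 0.301%. Trophectoderm keratins were abundant (KRT8 between 10633 and 26270 CPM), and all 12 trophectoderm markers, 10 of 11 epiblast markers and 12 of 15 hypoblast markers in the table were retained. The pools fell apart in transcripts of the Y chromosome. In sum, 9 pools were between 0.430 and 1.65 CPM, and 18 pools, called Y-high here, between 18.9 and 197 CPM. Below, rho within each cluster is given for the member pairs and the relations with measures that were called over all pools. It is not given for the nearest genes or for the genes of the wider lists. Embryo sex is not given in the labels, and a Y-high pool may hold male embryos only or male and female embryos. Among these 18 pools XIST, an RNA of the inactive X chromosome, was between 0.0484 CPM in pool 15 and 19.6 CPM in pool 44. The Y-high cluster thus does not hold the sex of the embryos fixed. In the other 9 pools, low in Y-linked transcripts, XIST was between 12.3 CPM in pool 13 and 35.4 CPM in pool 5. Gene positions are those of RefSeq on ARS-UCD2.0, the build to which the reads were mapped. Levels of different genes were not ranked.

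CTSB, a lysosomal cysteine protease that cuts within proteins and removes dipeptides from their ends, lies on chromosome 8 from 7566167 to 7587042. Its level was lowest in pool 45 at 283 CPM, had a median of 386 CPM and was highest in pool 33 at 552 CPM. Its pools formed a continuous range, and the highest was 1.95-fold above the lowest. CTSL, a cysteine endopeptidase that degrades lysosomal cargo and, when secreted, matrix proteins, lies on the same chromosome from 80974643 to 80980416. It was at 545 CPM in pool 42, at a median of 854 CPM and at 1577 CPM in pool 9. Pool 9 stood above the next pools, 33 and 38, which had 1221 and 1195 CPM. CTSV, a close relative of CTSL on the same chromosome, was at 1195 to 2312 CPM, and how reads were divided between the sequences of CTSL and CTSV is uncertain.

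CTSH, a cysteine protease that mainly trims amino acids from protein ends, lies on chromosome 21 from 25201459 to 25222183. Its lowest level was 130 CPM in pool 41, its median 247 CPM and its highest 397 CPM in pool 36. Pools 36 and 14, the latter with 374 CPM, were set apart from pool 31 at 312 CPM and those below it. CTSZ, a carboxypeptidase also known as cathepsin X, lies on chromosome 13 from 57381213 to 57390707. It was at 40.4 CPM in pool 12, at a median of 79.2 CPM and at 205 CPM in pool 31, a 5.07-fold range. Pools 31, 45 and 36 were its highest, with 167 CPM in pool 45 and 148 CPM in pool 36.

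CTSD is the aspartic endopeptidase of the lysosome and the one member protease that cystatins do not inhibit. It lies on chromosome 29 from 49712746 to 49722179. Its lowest level was 9.09 CPM in pool 9, where 132 reads were counted, its median 23.5 CPM and its highest 64.4 CPM in pool 31. Pool 31 was well above pool 26, the next at 41.4 CPM, and the whole range was 7.08-fold. Pool 9 was thus the lowest of all in CTSD and the highest of all in CTSL.

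Among the inhibitors of cathepsins, CST3 encodes cystatin C, a secreted inhibitor found in most body fluids. It lies on chromosome 13 from 42185282 to 42189207, and was at 143 CPM in pool 44, at a median of 181 CPM and at 266 CPM in pool 9. Its range of 1.85-fold was the narrowest of the members. CST6, which encodes cystatin E/M, an inhibitor of legumain and of cathepsins L and V, lies on chromosome 29 from 44101083 to 44102573. It was at 1.97 CPM in pool 21, at a median of 5.73 CPM and at 15.5 CPM in pool 14, and its range of 7.86-fold was the widest. Pool 14 alone exceeded 10 CPM, and the next pool, 33, was at 9.92 CPM. At its lowest CST6 rested on 54 reads.

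TIMP1, a soluble inhibitor of most matrix metalloproteinases, lies on chromosome X from 85939719 to 85943558. It was at 388 CPM in pool 15, at a median of 805 CPM and at 1179 CPM in pool 35. Pool 15 lay below the second lowest pool, 32, at 496 CPM, whereas pools 35 and 33 were almost equal at the top, the latter with 1175 CPM. TIMP2, which inhibits metalloproteinases and also takes part in the activation of pro-MMP2, lies on chromosome 19 from 53460835 to 53512593. Its lowest level was 142 CPM in pool 28, its median 343 CPM and its highest 641 CPM in pool 12, a 4.52-fold range. Pools 28 and 36 were lowest, the latter at 154 CPM, and pools 12 and 35 highest, the latter at 588 CPM.

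**Figure D1:**
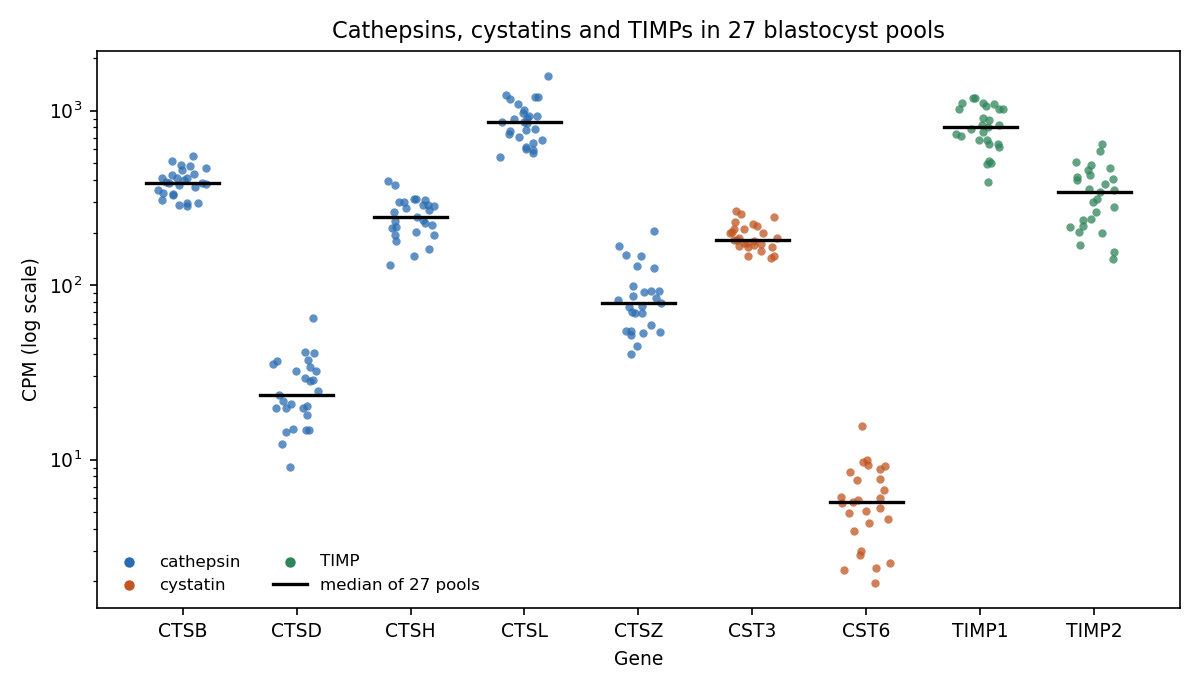
CPM (vertical axis, log scale) of the 9 members in 27 blastocyst pools, with 1 point per pool, black lines at the median, and colours for cathepsins, cystatins and TIMPs. CST3 and CTSB have the tightest points, whereas CTSD, CST6 and TIMP2 are spread widely, and CTSL has a single high pool at 1577 CPM.

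The spread among pools was set against that of all retained genes by the ratio of the upper to the lower quartile. This ratio was 1.23 for CST3 and 1.28 for CTSB, larger than in 13.3% and 21.2% of the retained genes. It was 1.42 for both CTSH and CTSL and 1.54 for TIMP1, the last at a percentile of 53.3. CTSZ, CTSD, TIMP2 and CST6 had ratios of 1.68, 1.76, 1.86 and 1.97, of which the last was larger than in 76.1% of the retained genes. Over the members the median was 1.54, beside 1.51 over all retained genes.

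No pool was high or low in all members. Pool 21 was among the 5 lowest pools for 6 members, CTSH, CTSL, CTSZ, CST3, CST6 and TIMP1, and among the 5 highest for 0. Pool 33 was among the 5 highest for CTSB, CTSH, CTSL, CST6 and TIMP1, and among the 5 lowest for CTSZ and CST3. Pools 5 and 25 were in neither set for any member. The same mixture was seen in ratios within pools, which do not depend on the total count. CTSZ relative to TIMP2 was between 0.0630 in pool 12 and 1.21 in pool 31, and CTSD relative to TIMP2 between 0.0198 in pool 9 and 0.380 in pool 31, each a 19.2-fold range. By contrast, CTSB relative to CTSH varied 2.88-fold, and TIMP1 relative to TIMP2 varied 3.97-fold, from 1.38 in pool 12 to 5.50 in pool 45.

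Whether members varied together over the pools was examined for each of the 36 pairs. Spearman's rho of CPM was tested by permutation (two-sided), p was adjusted by the Benjamini-Hochberg method for each member over 12319 features (the other retained genes and 10 measures of the pool), and a pair was called when the adjusted p was 0.05 or less for both of its genes. Of the 36 pairs, 1 was called positive, 1 was called negative and 34 were not called, with a median rho of 0.06. Of all features, 2.77% were called positive and 0.398% negative for TIMP1, 7.84% positive and 2.28% negative for TIMP2, and 1.29% positive and 3.25% negative for CTSZ. Per the study's methods the blastocysts came from 4 replicates, and each pool joined embryos of 1 treatment and replicate, so pools shared cultures. The permutations treat the 27 pools as exchangeable, and since treatment and replicate were not assigned, their part in any relation was not tested and these p-values may be too small.

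TIMP1 and TIMP2, the inhibitors of metalloproteinases, were greater in the same pools. Their rho was 0.64 (permutation p = 0.000428, larger adjusted p = 0.0248), and Pearson's r of log2(CPM + 1) was 0.63 (permutation p = 0.000433). Without the 2 pools farthest from the median of TIMP1, r was 0.57. The call was lost when CPM was scaled by TMM (rho 0.54, adjusted p = 0.106) or by DESeq2 size factors (rho 0.56, adjusted p = 0.0907). Within the 18 Y-high pools rho was 0.40 and r was 0.36 (permutation p = 0.0980 for rho), and within the other 9 rho was 0.13 (exact permutation p = 0.744), so the relation did not pass the test within either cluster.

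CTSZ and TIMP2 varied in opposite directions. Their rho was -0.61 (permutation p = 0.000941, larger adjusted p = 0.0351), and r was -0.63 (permutation p = 0.000408), or -0.55 without the 2 pools highest in CTSZ. Pool 12 had the lowest CTSZ and the highest TIMP2, and pool 31 had the highest CTSZ and the third lowest TIMP2 at 169 CPM. Within the 18 Y-high pools rho was -0.39 (permutation p = 0.112), and within the other 9 it was -0.20 (exact permutation p = 0.613). With no filter on abundance, and thus 24647 features, the adjusted p was 0.0654.

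The next strongest relation was between CTSL and TIMP2, with rho 0.59. It passed in the table of TIMP2 (adjusted p = 0.0227) but not in that of CTSL (adjusted p = 0.118), so it was not called. CTSL and TIMP1 had rho 0.47 (larger adjusted p = 0.240), CTSH and CTSZ had rho 0.47 (larger adjusted p = 0.250), and CTSB and CTSL had rho 0.42 (larger adjusted p = 0.416). None of these passed the test, and each cathepsin was called with 0 other cathepsins. For the cystatins, the largest rho with a cathepsin was 0.42 (CST6 and CTSH), and CTSB and CST3 had rho -0.29, neither of which passed. CST6 and the total count of the pool had rho -0.60 (permutation p = 0.00107) and r -0.54. Without pools 14 and 33, the farthest from the median of CST6, rho was -0.70. After adjustment, by which 0 features passed for CST6, the relation did not pass the test (adjusted p = 0.913).

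**Figure D2:**
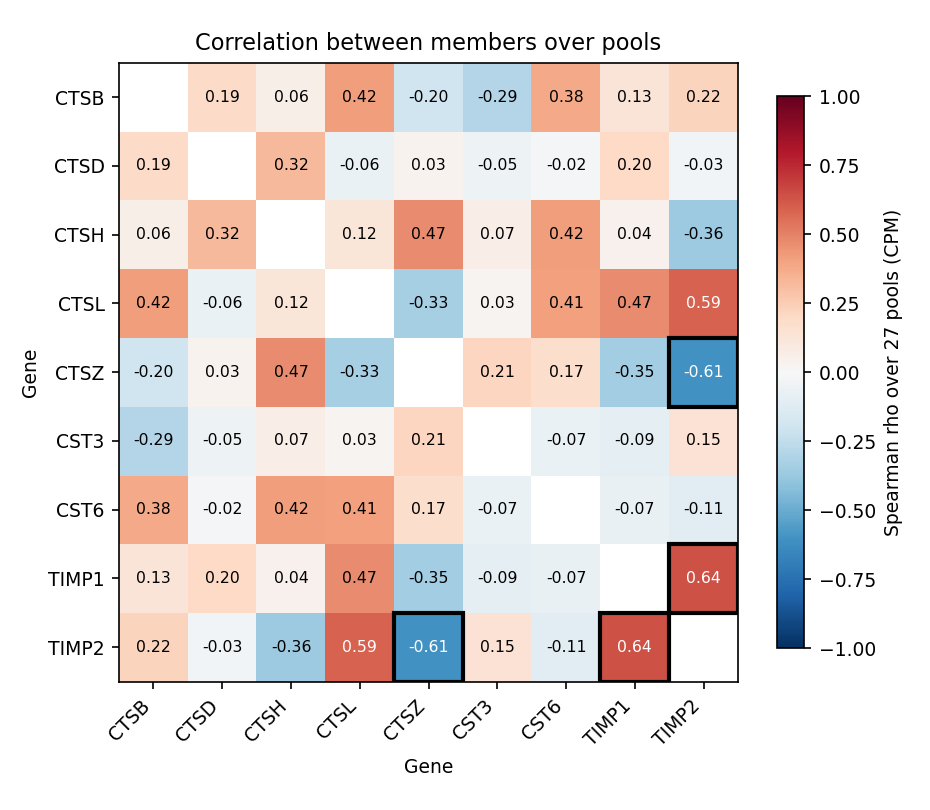
Spearman's rho (colour, from -1 to 1, with its value) for each pair of the 9 members over 27 pools, with genes on both axes and black frames around the pairs called. Frames surround TIMP1 with TIMP2 (0.64) and CTSZ with TIMP2 (-0.61), and most other squares are pale.

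The members were then set against 10 measures of the pools. These were scores of trophectoderm, epiblast, hypoblast, stress and lysosome genes, summed interferon tau, leukocyte and cumulus transcripts, XIST and the total count. Of the 90 relations, 4 were called positive and 1 negative, and all 5 involved TIMP1, TIMP2 or CTSZ. XIST, the noncoding RNA that coats the inactive X chromosome, was between 0.0484 CPM in pool 15 and 35.4 CPM in pool 5, with a median of 11.5 CPM.

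TIMP1, itself on the X chromosome, was greater in pools with more XIST. Its rho with XIST was 0.79 (permutation p = 2.4e-06, adjusted p = 0.00182), and r was 0.83 (adjusted p = 0.000948), or 0.79 without the 2 pools farthest from the median of TIMP1. Pool 15, the lowest in TIMP1, was also the lowest in XIST. Within the 18 Y-high pools rho was 0.80 (permutation p = 0.000128, adjusted p = 0.00231 over 18 relations within clusters, or 0.239 over all features). These 18 relations were 9 relations in 2 clusters, mostly taken because they had passed over all pools, and are no independent evidence. Within the other 9 pools it was -0.10 (exact permutation p = 0.810).

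For TIMP2, which is autosomal, rho with XIST was 0.74 (permutation p = 2.25e-05, adjusted p = 0.00144), and r was 0.73 (adjusted p = 0.00146). Leaving out the 2 pools farthest from the median of TIMP2 gave an r of 0.71. Within the 18 pools rho was 0.55 (permutation p = 0.0202, adjusted p = 0.0909 over 18 relations), and within the other 9 it was -0.23 (exact permutation p = 0.552). Hence for TIMP2 the relation fell short of the threshold within either cluster after adjustment.

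**Figure D3:**
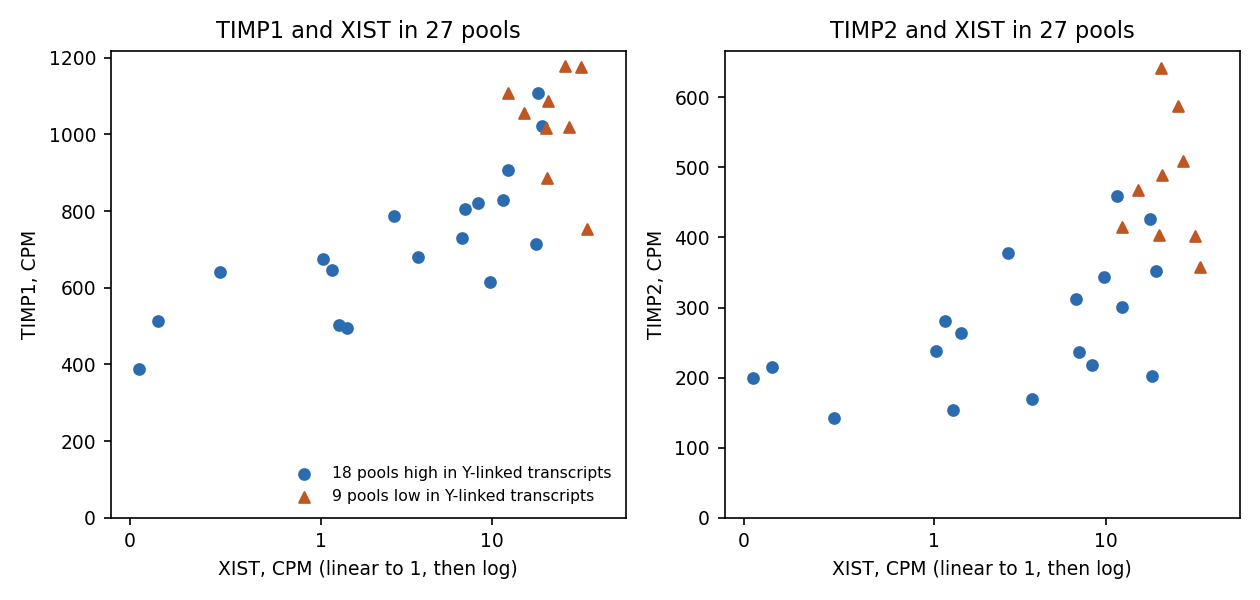
CPM of TIMP1 (left) and TIMP2 (right) on the vertical axes against XIST in CPM (horizontal axes, linear to 1 and then logarithmic), with circles for the 18 Y-high pools and triangles for the other 9. The circles rise with XIST for TIMP1 (rho 0.80) and, more loosely, for TIMP2 (rho 0.55), whereas the 9 triangles have rho of -0.10 and -0.23.

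TIMP2 was also greater in pools with more interferon tau, the signal by which the ruminant trophectoderm announces pregnancy, and in pools with a greater sum of leukocyte transcripts. With interferon tau, rho was 0.55 (permutation p = 0.00333, adjusted p = 0.0378) and r was 0.58 (permutation p = 0.00194). Without the 2 pools farthest from the median of TIMP2, r was 0.62. The interferon tau sum covered 3 of the 6 listed symbols and was mostly IFNT3. IFNT3 had a median of 40.6 CPM, beside 41.9 CPM for the sum, and 580 CPM in pool 9. Pool 9 had 597 CPM of interferon tau and the next pool, 14, had 265 CPM, and without pool 9 the rho of 0.53 no longer passed (adjusted p = 0.0571). Within the 18 Y-high pools rho with interferon tau was 0.66 (permutation p = 0.00354, adjusted p = 0.0319 over 18 relations, or 0.202 over all features), and within the other 9 it was -0.23 (exact permutation p = 0.552).

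With the leukocyte sum, TIMP2 had rho 0.79 (permutation p = 1.9e-06, adjusted p = 0.000312) and r 0.76 (permutation p = 8e-06), or 0.74 without the 2 pools farthest from the median of TIMP2. CTSZ had rho -0.59 with the same sum (permutation p = 0.00156, adjusted p = 0.0417) and r -0.61 (permutation p = 0.000747), or -0.52 without 2 pools. The sum was between 208 and 587 CPM, of which CD48, a surface glycoprotein used as a leukocyte marker, held between 188 and 530 CPM. The other 13 genes of the list together were between 17.0 and 75.2 CPM. Without CD48, which was left out after its values were seen, rho was 0.26 for TIMP2 (adjusted p = 0.445) and -0.23 for CTSZ (adjusted p = 0.534), and neither passed. CD48 alone had rho 0.80 with TIMP2 (adjusted p = 0.000308) and -0.59 with CTSZ (adjusted p = 0.0398). Within the 18 Y-high pools the leukocyte sum had rho 0.55 with TIMP2 (permutation p = 0.0186, adjusted p = 0.0909 over 18 relations) and -0.35 with CTSZ (permutation p = 0.150). Within the other 9 pools it had rho 0.00 with TIMP2 (exact permutation p = 1.0) and 0.13 with CTSZ (exact permutation p = 0.744), the latter of opposite sign. XIST and the leukocyte sum themselves had rho 0.64 over the 27 pools, so these relations share the same pools.

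No member was called with the trophectoderm, epiblast, hypoblast, stress or lysosome scores, the cumulus sum or the total count. The trophectoderm score had rho 0.51 with CTSH (adjusted p = 0.193), 0.49 with CTSZ (adjusted p = 0.109) and 0.43 with CTSD. The score of lysosomal enzymes and membrane proteins had rho 0.49 with CTSL (adjusted p = 0.215) and 0.47 with CTSB (adjusted p = 0.346). None of these passed the test.

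**Figure D4:**
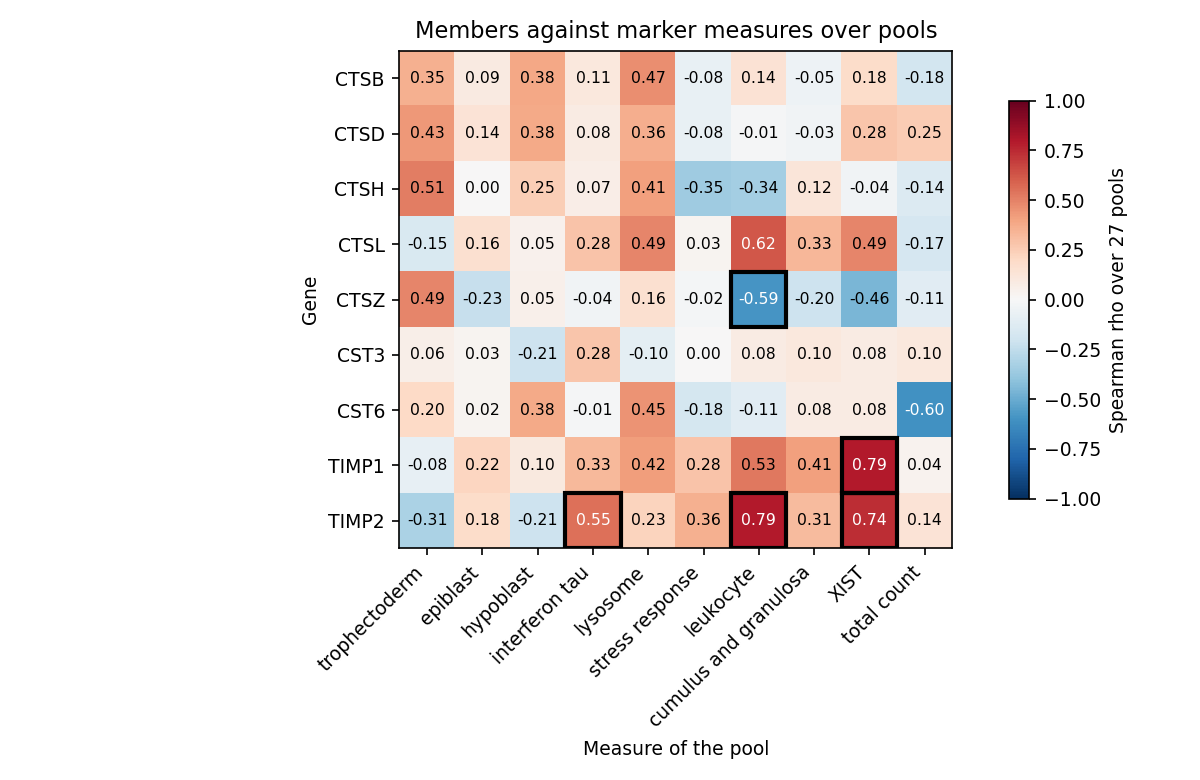
Spearman's rho (colour, from -1 to 1, with its value) of the 9 members (rows) with 10 measures of the pool (columns) over 27 pools, with black frames around the relations called. The frames lie in the rows of TIMP1 (XIST, 0.79), TIMP2 (interferon tau 0.55, leukocyte 0.79, XIST 0.74) and CTSZ (leukocyte -0.59).

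The genes most like each member over the pools were named by the 3 highest values of rho among all retained genes. For TIMP1 these were TEX11, a meiotic gene (rho 0.87, r 0.82), FAM50A (rho 0.84, r 0.87) and CITED1, a transcriptional coactivator (rho 0.84, r 0.83), each with an adjusted p = 0.000411 and each on the X chromosome. The lowest rho of TIMP1 was with ZFY, a zinc finger gene of the Y chromosome (-0.79, adjusted p = 0.00182). For TIMP2 they were PDK3, a kinase that inhibits pyruvate dehydrogenase (rho 0.91, r 0.87), ARPC5, a subunit of the actin-nucleating Arp2/3 complex (rho 0.89, r 0.87), and PHF6 (rho 0.89, r 0.86), each with an adjusted p = 4.11e-05. PDK3 and PHF6 are on the X chromosome and ARPC5 on chromosome 16, and the lowest rho of TIMP2 was with LOC132344515 on the Y chromosome (-0.89, adjusted p = 4.11e-05).

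Sex-linked genes were frequent among all features called for these members. Of the 337 genes with a known position that were positive with TIMP1, 176 were on the X chromosome (52.2%), and of the 959 positive with TIMP2, 253 were (26.4%), whereas the X chromosome held 3.64% of the retained genes. Of the 11 retained genes of the Y chromosome, 8 were negative with TIMP1 and 10 negative with TIMP2. For CTSZ the directions were opposite, with 47 X-linked genes among the 398 negative (11.8%), 0 among the 159 positive, and 2 Y-linked genes positive. The split of calls by direction depended on the scaling. TIMP2 had 966 positive and 281 negative with total counts but 687 and 546 with TMM, CTSZ had 159 and 400 but 313 and 251 with TMM, and TIMP1 had 341 and 49 but 115 and 44 with TMM. Restricting the test to the 18 Y-high pools left 0 member pairs and 0 measures called at an adjusted p of 0.05. In this test with fewer pools, 10 features were positive and 0 negative for TIMP2. For TIMP1 and CTSZ, 0 were called in either direction.

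CTSZ was most like P4HB, a protein disulfide isomerase of the endoplasmic reticulum (rho 0.87, r 0.83, adjusted p = 0.000616), TMEM86A (rho 0.86, adjusted p = 0.000616) and PLAC8A (rho 0.81, adjusted p = 0.00216). Its lowest rho was with EIF4A2, an RNA helicase of translation initiation (-0.83, adjusted p = 0.000821). P4HB was between 250 CPM in pool 12 and 630 CPM in pool 31, the same pools that were lowest and highest in CTSZ.

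CTSH had fewer companions, with 0.162% of features called positive and 0.114% negative. It was most like LOXL3, a lysyl oxidase that cross-links collagen (rho 0.83, r 0.83, adjusted p = 0.00493), ISYNA1, the enzyme that makes inositol phosphate from glucose phosphate (rho 0.81, adjusted p = 0.00764), and SLC11A2, a transporter of iron (rho 0.79, adjusted p = 0.00764). By Pearson's r, however, 1 gene was positive and 0 negative for CTSH. With TMM 65 features were positive and 33 negative, and with DESeq2 size factors 59 and 37, in place of 20 and 14. For CTSL, with 0.114% positive and 0.122% negative, the genes were GBP1, an interferon-induced GTPase (rho 0.78, adjusted p = 0.0125), CYP4A22 (rho 0.77, adjusted p = 0.0125) and CPE, a carboxypeptidase of secretory granules (rho 0.74, adjusted p = 0.0351). RPL18, a ribosomal protein, had the lowest value with CTSL (rho -0.80, adjusted p = 0.0125). Without pool 9, the highest in CTSL, 5 genes were positive and 5 negative, in place of 14 and 15. With TMM or DESeq2 size factors 0 genes were called for CTSL, beside 1366 and 1341 at or below an unadjusted p of 0.05.

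CTSD, with 0.0568% of features called positive and 0.0162% negative, was most like PLD3, a nuclease of the lysosome (rho 0.76, r 0.75), RUSC1 (rho 0.76) and ARHGDIA (rho 0.75), each with an adjusted p = 0.0377. By Pearson's r 79 genes were positive and 47 negative for CTSD, and by edgeR's quasi-likelihood test 43 and 43 were. Without pool 9, the lowest in CTSD, 0 genes passed in either direction (1188 at or below an unadjusted p of 0.05), and with no filter on abundance 0 passed as well (1880 without adjustment). With TMM 1 was positive and 2 negative, so whether genes passed for CTSD depended on including pool 9 and on these choices. No other single pool was left out for comparison.

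For CTSB, CST3 and CST6 the shares of features called were 0% in both directions by the permutation test of rho. Without adjustment, 1319 features had p at or below 0.05 for CTSB, 791 for CST3 and 656 for CST6. The edgeR quasi-likelihood test with the member as a covariate also called 0 genes for each of them, with 1249, 902 and 615 at or below an unadjusted p of 0.05. The nearest genes were EXT2, which builds heparan sulfate (rho 0.77, adjusted p = 0.0511), MICAL1 (rho 0.76) and RAD51D (rho 0.73) for CTSB, BLVRA (rho 0.64, adjusted p = 0.562), CCL24 (rho 0.63) and GAPDH (rho 0.61) for CST3, and GATD1 (rho 0.69, adjusted p = 0.913), DENND3 (rho 0.65) and CSAD (rho 0.65) for CST6. None of these passed the test.

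The wider lists of proteases, inhibitors and lysosome genes held 107 other genes, of which 73 were retained. Of these 73, 35 belonged to the list of lysosome enzymes and membrane proteins. Among other cathepsins 6 of 9 in the table were retained. CTSA, a serine carboxypeptidase that also protects lysosomal glycosidases, was at 114 to 253 CPM, and CTSC, which activates granule serine proteases, was at 24.4 to 73.2 CPM. CTSS, a cathepsin of antigen-presenting cells, was between 1.15 and 7.64 CPM, and CTSK, the collagenolytic cathepsin of osteoclasts, had a median of 0.303 CPM and was not retained. Among other cystatins and thyropins 4 of 11 were retained, FETUB, AHSG, SPOCK1 and CD74, each with a median below 10 CPM.

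Of the other TIMPs, TIMP3, which stays bound to matrix, was between 0.424 and 11.1 CPM, and TIMP4 had a median of 0. Of the 21 metalloproteinases in the table that TIMPs hold in check, 7 were retained. These were ADAM10 (97.4 to 144 CPM) and ADAM17 (15.2 to 37.1 CPM), which shed membrane proteins, MMP12 (13.1 to 102 CPM), the elastase first described in macrophages, MMP11, MMP15, ADAMTS1 and ADAMTS4. The gelatinases MMP2 and MMP9 were not retained, with medians of 0 and 0.731 CPM, nor was MMP14, the membrane partner of TIMP2 in the activation of pro-MMP2, with a median of 0. In no pool did MMP2 exceed 1.11 CPM or MMP9 exceed 1.81 CPM. Of the genes that process and sort cathepsins 10 of 12 were retained, among them LGMN, which is inhibited by CST6 (48.0 to 120 CPM), and M6PR, a mannose 6-phosphate receptor (153 to 213 CPM).

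**Figure D5:**
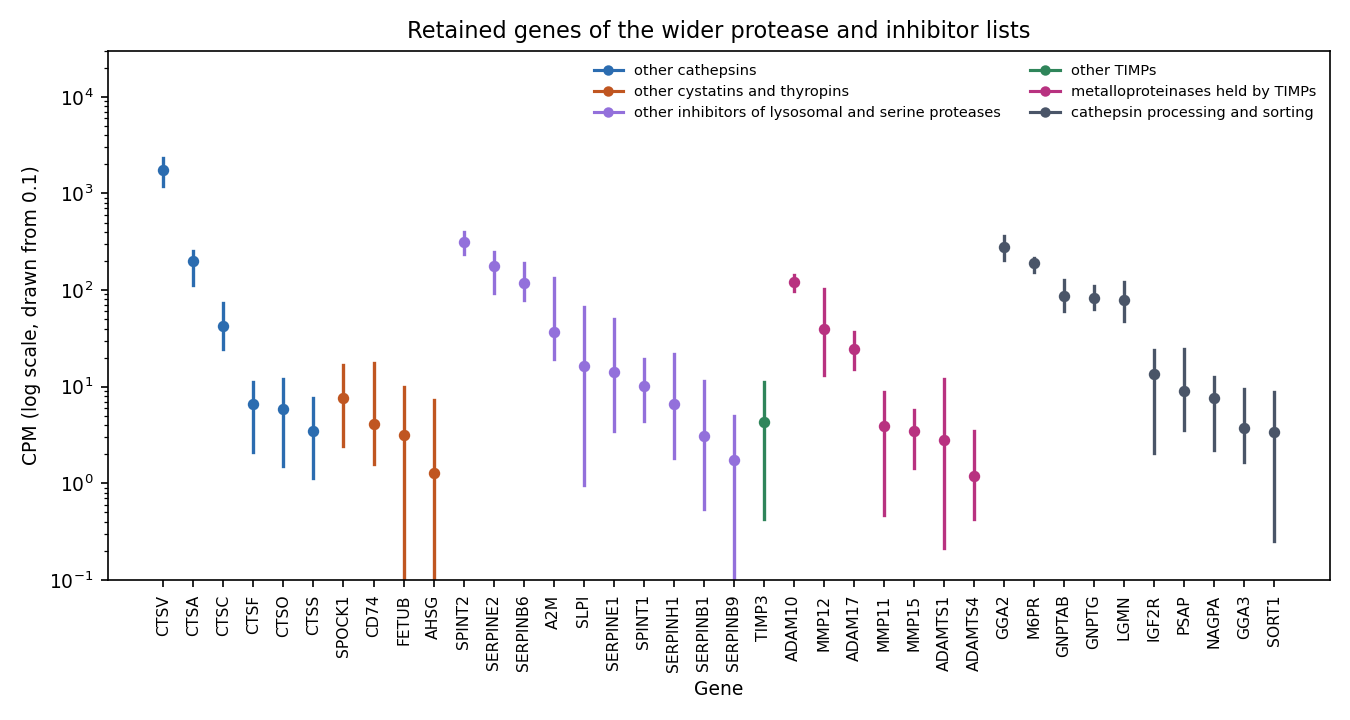
Median (points) and lowest to highest CPM (lines) over 27 pools for retained genes of the wider lists. The axis is logarithmic and drawn from 0.1 CPM, with colours for lists. The 35 retained genes of the list of lysosome enzymes and membrane proteins are not drawn. CTSV, SPINT2, GGA2 and CTSA are among the genes above 100 CPM at the median, and 7 metalloproteinases and 1 TIMP appear.

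Of the 657 relations of the 9 members with these 73 genes, 19 were called positive and 2 negative. In the Y-high pools alone 0 were called positive and 0 negative, in a test with fewer pools. The relations named below were thus called over all pools only. TIMP2 had 11 positive and 1 negative, CTSZ 4 and 1, TIMP1 3 and 0, CTSL 1 and 0, and the other members 0 and 0. For TIMP2 these 12 of 73 genes stood beside 7.84% positive and 2.28% negative of all features. Its median rho over the 73 genes was 0.11, beside 0.10 over all features. The shares of all features were 1.29% positive and 3.25% negative for CTSZ and 2.77% and 0.398% for TIMP1. For CTSL they were 0.114% and 0.122%.

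TIMP2 was positive with LAMP2, a membrane protein of the lysosome (rho 0.80, adjusted p = 0.000269), GLA, the lysosomal alpha-galactosidase (rho 0.76, adjusted p = 0.000824), and TFE3, a transcription factor of lysosomal genes (rho 0.64, adjusted p = 0.0102), all on the X chromosome. It was also positive with SERPINH1, a chaperone of collagen (rho 0.73, adjusted p = 0.00183), CTSC (rho 0.67, adjusted p = 0.00606), the fetuins AHSG (rho 0.66) and FETUB (rho 0.63), SERPINB9 (rho 0.65), SLPI, a secreted inhibitor of leukocyte elastase (rho 0.59), MMP12 (rho 0.56, adjusted p = 0.0314) and GUSB, the lysosomal beta-glucuronidase (rho 0.55, adjusted p = 0.0378). The relation with GUSB did not pass by Pearson's r (0.46, adjusted p = 0.0911). GM2A, a lysosomal activator of ganglioside breakdown, was negative (rho -0.63, adjusted p = 0.0117). Of these, MMP12 is the metalloproteinase that a TIMP would bind. It was at its highest, 102 CPM, in pool 35, where TIMP2 was second highest. Without pools 12 and 35 the rho of MMP12 with TIMP2 was 0.46. Of the 7 retained metalloproteinases, 1 was called with TIMP2 (median rho 0.02, lowest -0.39) and 0 with TIMP1.

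CTSZ was positive with MMP11 (rho 0.68, adjusted p = 0.0148), NAGPA, which uncovers the mannose 6-phosphate tag (rho 0.67, adjusted p = 0.0148), SERPINB6 (rho 0.63, adjusted p = 0.0258) and NEU1, the lysosomal sialidase (rho 0.59, adjusted p = 0.0417), and negative with TFE3 (rho -0.67, adjusted p = 0.0159). TIMP1 was positive with LAMP2 (rho 0.68, adjusted p = 0.0149), ATP6AP1, an accessory subunit of the lysosomal proton pump (rho 0.67, adjusted p = 0.0156), and TFE3 (rho 0.63, adjusted p = 0.0294), all 3 on the X chromosome. CTSL was positive with LAMP2 (rho 0.72, adjusted p = 0.0351), which did not pass by Pearson's r (0.66, adjusted p = 0.0699). LAMP2 was thus called with 3 members, TIMP1, TIMP2 and CTSL. The call with CTSL was lost with TMM and with DESeq2 size factors, by which 0 features were called for CTSL. LAMP2 was between 866 CPM in pool 31 and 2179 CPM in pool 5.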

How the data were processed

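Reads came from poly(A)-primed cDNA of 27 pools of 2 blastocysts (SMART-Seq v4 3′ DE Kit, Nextera XT). The authors used fastp to trim the forward reads, STAR to align these to ARS-UCD2.0 and featureCounts to assign alignments to genes, and the deposited values are raw counts of 32637 genes with no normalization. Tool versions, the annotation and the strand setting are not given in the sources used here. As reads are not molecules, the floor of 3 counts covers counting error only. Pools left out by the authors for low depth were not analysed here. Every column matched a pool by its number, 0 rows named no gene, and no pair of pools agreed within sampling noise (chi-square per degree of freedom at least 23.9).

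CPM was the count divided by the column total, per 1000000. The filter of the study's methods, 1 CPM or more in at least 12 pools, was kept. Spearman p-values came from 10000000 permutations of ranks (smallest p 1e-07), with ties averaged, and those within 9 pools from all permutations. Pearson p-values came from 100000 permutations, or 1000000 where p was 0.001 or less. P-values were adjusted by the Benjamini-Hochberg method for each member over 12309 genes and 10 measures. Scores were means of standardised log2(CPM + 1). The plan named 10 members, and 9 could be analysed. Members, lists and tests were chosen with earlier results of these data known. Genes named were the members, the retained pathway genes, the markers and the 3 genes nearest to each member. CTSV and the genes of lowest rho, such as ZFY, were picked with their values in view.

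Alternatives were TMM and DESeq2 scaling, Pearson correlation with a pseudocount of 1 or 0.1, no filter, at least 2 CPM in all pools, leaving out pool 9, summed scores, and edgeR's quasi-likelihood test with TMM. The restriction to 18 pools and the lists without CD48 and LUM were added after seeing the data. The permutation tests of Spearman's rho and Pearson's r and the Benjamini-Hochberg adjustment were first tested on simulated data. The other steps were not. Software was numpy 2.4.6, scipy 1.17.1 and pandas 2.3.3 in Python 3.11.15, and DESeq2 1.42.0 and edgeR 4.0.16 in R 4.3.3.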

Additional observations from a re-analysis of the deposited data

How the results depend on the processing

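The median number of genes called per member (14 positive and 14 negative) was 1 and 2 with TMM, 7 positive with DESeq2 size factors and with Pearson correlation at a pseudocount of 1, 1 and 4 at a pseudocount of 0.1, 2 and 4 with no filter, 5 and 5 without pool 9, and 1 and 0 with edgeR. Positive member pairs (1) fell to 0 with TMM and DESeq2 size factors, and negative pairs (1) to 0 with no filter. Negative relations with measures (1) were 0 with TMM, DESeq2 size factors, no filter and the lists without CD48 and LUM, and 2 with summed scores. Negative pathway relations (2) were 4 with TMM. In the 18 pools high in Y-linked transcripts alone, all of these counts were 0, in a test with fewer pools. The cause of the other changes was not tested. Of the single relations followed, the threshold was lost in 17 cases, and 0 changed sign under these alternatives, which do not include the 9 pools low in Y-linked transcripts. CTSZ with the leukocyte sum had an adjusted p = 0.0679 with TMM, 0.0777 with DESeq2 size factors and 0.0759 with no filter, and TIMP2 with interferon tau had 0.0653 with no filter. At 2 CPM in all pools CST6 was not retained and CTSB had 2 positive genes. The planned order of levels, per kb of transcript or without length correction, was not run. No paired analysis was possible because the pools formed 1 group and their replicate was not assigned. Depth limits CST6 most, which rested on as few as 54 reads.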

Other observations

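CSTB, which encodes stefin B, an inhibitor of cathepsins inside the cell, is given as a synonym of 2 loci of chromosome 1 in the RefSeq annotation of ARS-UCD2.0. They are no members and were chosen after their annotation was seen. LOC512805, from 143846935 to 143850386, was between 967 CPM in pool 15 and 1782 CPM in pool 31, with a median of 1455 CPM. LOC514170, from 143819485 to 143823722, was between 157 CPM in pool 25 and 572 CPM in pool 12, with a median of 350 CPM. The loci share a name, and how reads were divided between them is uncertain. LOC514170 had rho -0.65 with CTSZ (permutation test, adjusted p = 0.0197) and 0.60 with TIMP2 (adjusted p = 0.0214), whereas LOC512805 was called with 0 members, the smallest adjusted p being 0.630 (TIMP1).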
